A study of Mus musculus with 10 samples.

Results

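Tnfsf11, Tnfrsf11b and Csf1 encode 3 of the secreted or membrane-bound proteins through which marrow stromal cells govern osteoclasts, the cells that resorb bone. Each gene was represented by 1 probe set that carried its symbol alone (10421737, 10428604 and 10501164), and the 3 genes were taken from 19938 genes named in this way. Expression was measured on 10 single-colour arrays of bone marrow mesenchymal stromal cells (MSC), adherent marrow cells that can form bone and fat. The cells came from female C57BL/6J mice aged 6 to 8 weeks, were studied at passage 16 to 17, and carried no labelled treatment or allele. Each of 5 independent preparations, called MSC I to MSC V, gave 2 arrays. All were grown in supplemented MesenCult medium with penicillin, streptomycin and kanamycin, and none served as a control. The labels do not say whether the arrays of a preparation came from separate cultures, so p-values rest on the spread from array to array alone, and that spread may be technical.

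RANKL, the product of Tnfsf11, binds its receptor RANK on cells of the monocyte lineage and drives them to become osteoclasts. Osteoprotegerin (OPG), the product of Tnfrsf11b, is a soluble decoy receptor that captures RANKL, so the balance of the pair is commonly written as a ratio. CSF1, also called M-CSF, binds the receptor CSF1R and keeps osteoclast precursors alive and dividing.

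Among the preparations the level of Tnfrsf11b differed most. Its mean spanned 3.32 log2, a 9.97-fold range, from MSC II to MSC I. Tnfsf11 stayed near the median of all probe sets in every preparation, with a range of means of 0.34 log2. Csf1 was at a high level in all of them, with a range of 0.69 log2. Over all tested genes the median range was 0.75 log2, and the range of Tnfrsf11b exceeded that of 95.6% of the 10971 tested genes. A gene was called when the adjusted p of limma's moderated F test (Benjamini-Hochberg over all tested genes) was under 0.05 and the range of preparation means reached 1 log2, a fold of 2. By this rule 1 of the 3 genes was called, against 29.1% of all tested genes, and the members were too few to be set against that share.

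**Figure D1:**
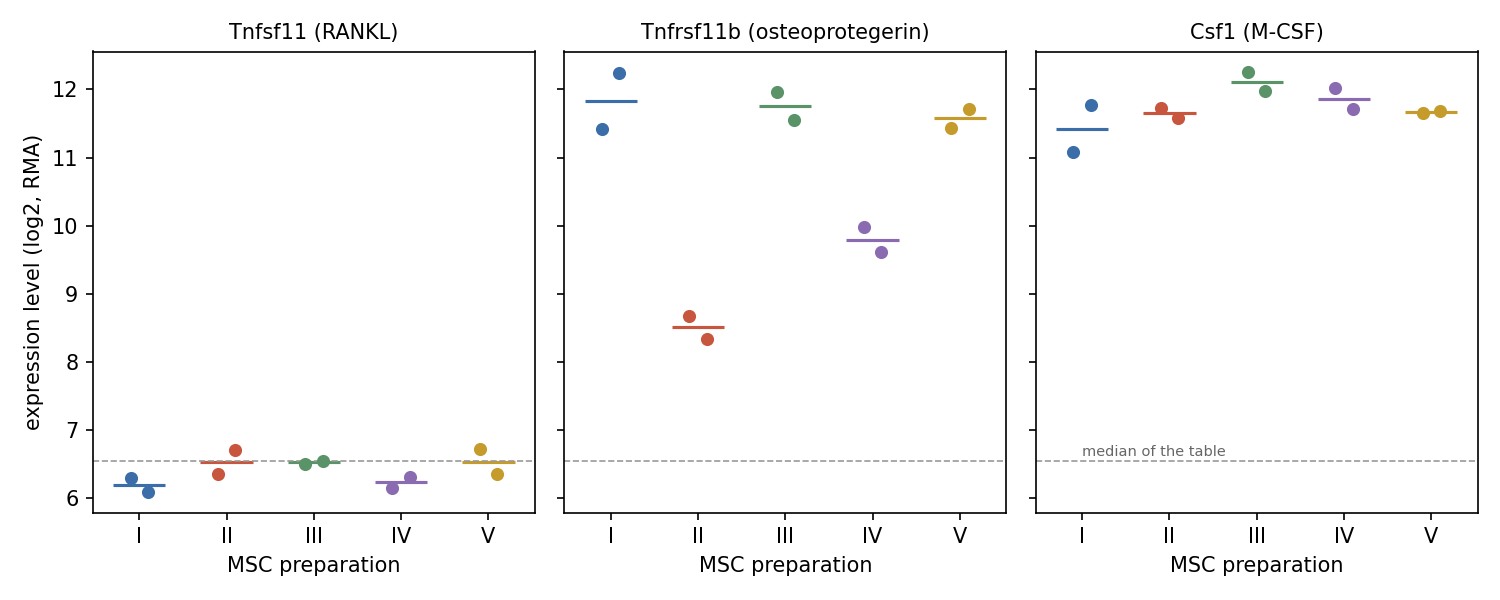
Expression level (log2, RMA) of Tnfsf11, Tnfrsf11b and Csf1 on each of the 10 arrays. Points are arrays, solid lines are preparation means over 2 arrays and the dashed line is the median of the table, 6.55. Tnfrsf11b lies lowest in MSC II (8.34 and 8.68) and next lowest in MSC IV, while the levels of the other genes stay within narrow bands.

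Tnfsf11 was measured at 6.30 and 6.10 log2 in MSC I, 6.36 and 6.72 in MSC II, 6.51 and 6.55 in MSC III, 6.15 and 6.32 in MSC IV, and 6.72 and 6.36 in MSC V (replicates 1 and 2). Both arrays of MSC I and both of MSC IV lay below all 6 arrays of the others, and within these sets the preparations overlapped. Of the 10 arrays, 3, from MSC II, MSC III and MSC V, lay above the table median of 6.55. The means ± SD (n = 2) ran from 6.20 ± 0.14 in MSC I to 6.54 ± 0.26 in MSC V. The F test did not call the gene (adjusted p = 0.238). In limma's comparisons of the 10 pairs of preparations 0 were called, 0 had an unadjusted p under 0.05, and the 95% intervals of all 10 differences lay between -0.71 and 0.75 log2, so none reached a fold of 2. RMA values compress differences between low levels, and no detection calls were used, so this interval applies to the array values and a low level does not show that the transcript was absent.

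Tnfrsf11b was measured at 11.42 and 12.24 in MSC I, 8.68 and 8.34 in MSC II, 11.96 and 11.55 in MSC III, 9.98 and 9.62 in MSC IV, and 11.44 and 11.72 in MSC V. Both arrays of MSC II lay below both of MSC IV, and these in turn lay below all 6 arrays of the other preparations, which overlapped among themselves. In order, the means ± SD (n = 2) were 11.83 ± 0.58 in MSC I, 11.75 ± 0.29 in MSC III, 11.58 ± 0.20 in MSC V, 9.80 ± 0.26 in MSC IV and 8.51 ± 0.24 in MSC II. The F test called the gene (adjusted p = 0.00036).

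By pairs, 7 of 10 comparisons of Tnfrsf11b were called. The level was lower in MSC II than in MSC I by 9.97-fold (-3.32 ± 0.29 log2, SE, adjusted p = 0.0002 in limma's test), where 14.9% of all tested genes were called in either direction. It was 9.47-fold higher in MSC III than in MSC II (adjusted p = 0.0015, 3.02% of genes called) and 8.39-fold higher in MSC V than in MSC II (adjusted p = 0.0014, 5.56% called). MSC IV was 4.08-fold below MSC I (adjusted p = 0.0014, 20.3% called) and 3.87-fold below MSC III (adjusted p = 0.0057, 7.99% called). MSC V was 3.43-fold above MSC IV (adjusted p = 0.0065, 10.9% called). MSC IV in turn exceeded MSC II by 2.45-fold (1.29 ± 0.29 log2, SE, adjusted p = 0.0226, 9.06% called). This last call was lost in limma's test without MSC II replicate 2 (adjusted p = 0.13), MSC IV replicate 1 (adjusted p = 0.1) or MSC IV replicate 2 (adjusted p = 0.0695). The 3 neighbours at the top of the order did not differ beyond their spread: MSC III against MSC I gave -0.07 log2 (95% interval -0.76 to 0.61, 11.3% of genes called), MSC V against MSC I gave -0.25 (-0.93 to 0.43, 10.5% called) and MSC V against MSC III gave -0.17 (-0.86 to 0.51, 2.07% called). These intervals do not show that the levels were equal.

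Against the mean of the other four, Tnfrsf11b was called in each preparation. It was higher in MSC I by 1.42 ± 0.23 log2 (SE, adjusted p = 0.0027 by limma), in MSC III by 1.32 (adjusted p = 0.0201) and in MSC V by 1.11 (adjusted p = 0.0248), where 7.73%, 1.31% and 2.11% of all tested genes were called higher. It was lower in MSC II (-2.73 log2, adjusted p = 0.00055) and in MSC IV (-1.12, adjusted p = 0.0099), where 2.69% and 7.7% of genes were called lower. The calls of MSC III and MSC V were each lost without either of their own arrays (adjusted p of 0.219 and 0.109, and of 0.105 and 0.133), and that of MSC IV without its replicate 2 (adjusted p = 0.115).

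**Figure D2:**
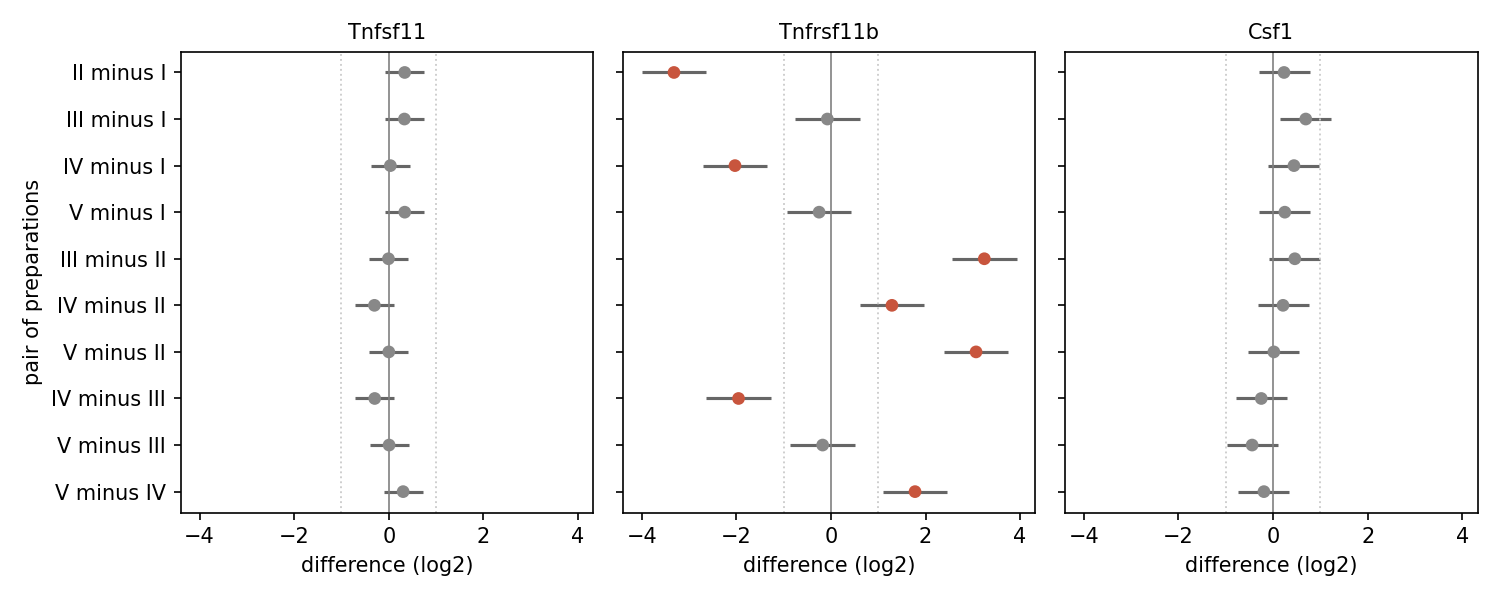
Differences (log2) between each of the 10 pairs of preparations, named on the vertical axis without the prefix MSC, for the 3 genes. Points are differences of means over 2 arrays each, bars are 95% intervals from limma, red points are called, grey points are not, and dotted lines mark a fold of 2. All 7 red points belong to Tnfrsf11b, and each of them involves MSC II or MSC IV.

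Csf1 was measured at 11.08 and 11.77 in MSC I, 11.73 and 11.59 in MSC II, 12.25 and 11.98 in MSC III, 12.03 and 11.71 in MSC IV, and 11.66 and 11.69 in MSC V. Replicate 1 of MSC I was the lowest of the 10 arrays, and both arrays of MSC III lay above all arrays other than replicate 1 of MSC IV. The means ± SD (n = 2) were 12.12 ± 0.19 in MSC III, 11.87 ± 0.22 in MSC IV, 11.67 ± 0.0197 in MSC V, 11.66 ± 0.0992 in MSC II and 11.43 ± 0.49 in MSC I. The F test did not call the gene (adjusted p = 0.169). By limma 0 of 10 pairs were called, and 1 pair, MSC III against MSC I, had an unadjusted p under 0.05 (0.69 ± 0.23 log2, SE, adjusted p = 0.0627). Its 95% interval, 0.15 to 1.23 log2, does not exclude a fold of 2. Without MSC I replicate 2 the gene was called (range 1.04 log2, adjusted p = 0.0371), as was MSC III against MSC I (adjusted p = 0.0177), so the result for Csf1 rests on that array.

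The stretches before the start sites of Tnfsf11 and Csf1 are shown because they held matches to different promoter motifs. They are the 250 bases before the annotated start in RefSeq (GRCm38.p6), minus strand, at chr14:78308044-78308293 for Tnfsf11 and chr3:107760470-107760719 for Csf1, with matches to the searched motifs in capitals. Tnfrsf11b had no entry of this kind.
Tnfsf11: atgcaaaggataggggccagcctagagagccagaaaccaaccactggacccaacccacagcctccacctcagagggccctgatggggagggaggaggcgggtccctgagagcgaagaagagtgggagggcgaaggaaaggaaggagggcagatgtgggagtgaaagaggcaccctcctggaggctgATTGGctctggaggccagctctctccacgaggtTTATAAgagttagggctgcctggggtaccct
Csf1: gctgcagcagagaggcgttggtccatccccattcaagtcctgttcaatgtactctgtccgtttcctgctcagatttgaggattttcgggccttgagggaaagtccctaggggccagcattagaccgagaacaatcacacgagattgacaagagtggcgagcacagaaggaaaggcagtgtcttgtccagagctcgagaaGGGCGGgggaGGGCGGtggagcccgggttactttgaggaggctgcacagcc
Both strands were searched for 5 motifs, the TATA box (TATAA), the CCAAT box (CCAAT), the GC box (GGGCGG), AP-1 (TGANTCA) and RUNX (TGTGGT). The Tnfsf11 stretch held TATAA on both strands, overlapping, from 31 bases before the start, and CCAAT on the reverse strand from 64 bases before it. The Csf1 stretch held GGGCGG starting 51 and 41 bases before the start. Among 32851 stretches of this length, TATAA was found in 22.8%, CCAAT in 33.8%, GGGCGG in 32.7%, TGANTCA in 6.75% and TGTGGT in 14%. A match describes letters and does not show that a factor binds.

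The ratio of Tnfsf11 to Tnfrsf11b was taken within each array as a difference of log2 values. Since 2 probe sets differ in how well they bind, its size has no meaning of its own and only its differences between arrays were read. Set against its mean over the 10 arrays, the log2 ratio was -0.83 and -1.85 in MSC I, 1.97 and 2.66 in MSC II, -1.16 and -0.71 in MSC III, 0.45 and 0.99 in MSC IV, and -0.43 and -1.08 in MSC V. Both arrays of MSC II were above all others, both of MSC IV came next, and the arrays of the other preparations lay below the mean and overlapped.

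The ratio differed among the preparations by up to 3.66 log2, or 12.6-fold, between MSC II and MSC I (pooled SE 0.49). An exact one-sided permutation test of the F statistic over all ways to join the 10 arrays into 5 pairs gave p = 0.00952, where 0.00106 is the smallest value possible. MSC II exceeded MSC III by 9.51-fold, MSC V by 8.38-fold and MSC IV by 3.02-fold. MSC IV exceeded MSC I by 4.18-fold, MSC III by 3.15-fold and MSC V by 2.78-fold. The arrays of these 7 pairs did not overlap, while those of the remaining 3 pairs, among MSC I, III and V, did. No share over other genes stands beside this count, so it is a description alone. The pairs were not tested singly, since a permutation test of 2 arrays against 2 cannot reach 0.05. Of the 3.66 log2 between MSC II and MSC I, Tnfrsf11b supplied 3.32 and Tnfsf11 0.34. Between MSC II and MSC III or MSC V the shares of Tnfsf11 were under 0.01 in size (-0.00597 and 0.0011 log2 as the later minus the earlier preparation). In the array values nearly the whole difference in ratio thus came from Tnfrsf11b in these pairs, and likewise in MSC IV against MSC I (2.03 of 2.06 log2). For MSC IV minus MSC II, Tnfsf11 supplied -0.30 of -1.59 log2. In the other pairs with MSC IV it went against Tnfrsf11b. Its part was -0.30 beside 1.95 log2 for MSC IV minus MSC III, and 0.30 beside -1.78 for MSC V minus MSC IV. Tnfsf11 lay near the table median, where RMA compresses differences, so its share may be too small. The split does not show how far the Tnfsf11 transcript itself differed.

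**Figure D3:**
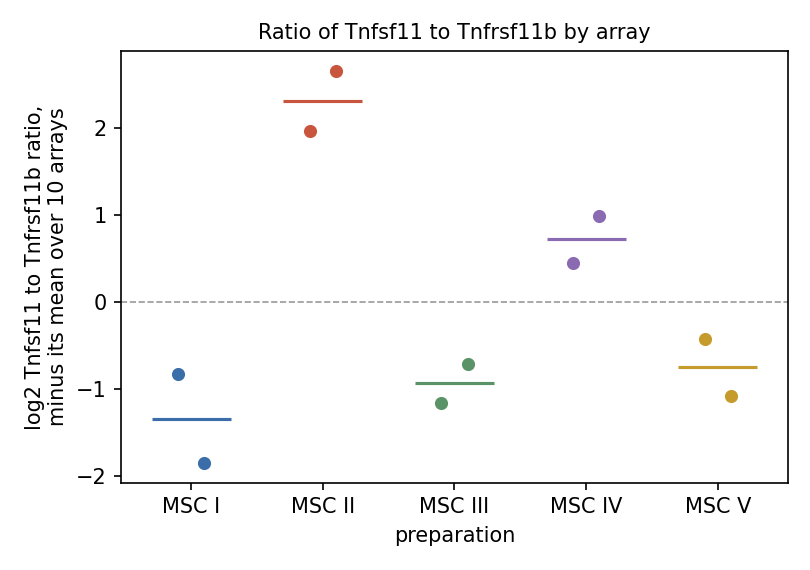
Log2 ratio of Tnfsf11 to Tnfrsf11b on each array, minus its mean over the 10 arrays, by preparation. Points are arrays and lines are preparation means over 2 arrays. MSC II lies highest at 1.97 and 2.66, MSC IV lies next at 0.45 and 0.99, and the other preparations lie below 0.

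The genes whose profile over the 5 preparation means was most like that of Tnfrsf11b, by the root mean square difference of profiles centred on their own mean, were Rrm2 (0.29 log2), Smoc1 (0.31), Col12a1 (0.41), Ctsc (0.42) and Aspm (0.44). The median over all tested genes was 1.37. Rrm2, a subunit of the enzyme that makes deoxynucleotides for DNA replication, had means of 11.15 in MSC I, 8.32 in MSC II, 10.91 in MSC III, 8.75 in MSC IV and 10.74 in MSC V. Aspm, a protein of the mitotic spindle, had 9.19, 6.05, 8.19, 6.30 and 8.46 in the same order. Both genes of dividing cells were lowest in MSC II, then MSC IV, like Tnfrsf11b. They were picked for the likeness of their profiles, so this shared order follows from the choice. Their part in the differences of Tnfrsf11b was not tested. Smoc1 and Col12a1 encode matrix proteins and Ctsc a lysosomal protease. The closest profiles to Tnfsf11 (Rtkn, Rfc3, Gnl3l, H4f16 and Hdac3) and to Csf1 (Ubqln4, Nolc1, Ints13, Bcap29 and Nop58) differed from them by at most 0.0440 and 0.0584 log2. These members' own profiles lay only 0.16 and 0.23 log2 from flat, and the medians over all tested genes were 0.31 and 0.35.

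Around the 3 genes, 12 lists with 197 genes were examined, of which 186 had a probe set with 1 symbol, 112 were tested and 72 differed among the preparations, against 29.1% of all tested genes. The lists were chosen with earlier results of these data known. A share above that of all genes, here or in a single list below, is therefore no support. MSC I held the highest mean of 37 of the 72 (51.4%, against 38% of all called genes) and MSC IV the lowest mean of 35 (48.6%, against 36.6%). Relative to the other four, MSC I had 32 list genes higher and 17 lower, where 7.73% and 5.22% of all tested genes were called. In MSC IV 12 were higher and 31 lower (3.29% and 7.7% of all genes), with 19 lower without MSC IV replicate 2. In MSC II 11 were higher and 14 lower (2.45% and 2.69%), counts that moved when single arrays were left out: 3 were higher and 7 lower without MSC II replicate 2, 7 were lower without MSC II replicate 1, and 7 were higher without MSC I replicate 2 or MSC IV replicate 2. With no low-value filter or the stricter one, 6 were higher in MSC II, and with the stricter one 2 were higher in MSC V. MSC III had 1 higher and 4 lower (1.31% and 0.957%), and MSC V 4 higher and 7 lower (2.11% and 1.44%). The lower count of MSC III was 1 without either array of MSC I and 2 without either of its own arrays or MSC IV replicate 2, and its single higher gene was lost without its replicate 2 and became 2 without its replicate 1. The lower count of MSC V was 3 without either array of MSC I or its own replicate 2, and 2 without its replicate 1. A gene that passed the low-value filter through 1 preparation alone had to be higher there: this holds for 8 of the 72 (Il15, Fas, Adipoq, Cd36, Plin1 and Cidec through MSC I, Wnt4 and Eng through MSC IV), so these counts do not stand as support.

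Of 20 measured secreted factors that promote osteoclasts, 11 were tested and 8 differed (29.1% of all tested genes did), with a median range of 2.82 log2. Of the 8, 5 were highest in MSC I and 6 lowest in MSC IV, as were 38% and 36.6% of all called genes. Il15 is among the 5, and it passed the low-value filter through MSC I alone, which fixed its direction. Ccl2 and Ccl7, chemokines that attract monocytes, ranged from 12.57 ± 0.62 and 12.13 ± 0.59 in MSC I to 6.81 ± 0.45 and 6.77 ± 0.13 in MSC IV (mean ± SD, n = 2, limma F, adjusted p = 0.00311 and 0.00111). Il6, a cytokine that raises stromal RANKL, was 8.71 ± 0.86 in MSC I and between 5.10 and 6.04 elsewhere. Cxcl12, which holds blood precursors in the marrow, was 9.38 ± 0.19 in MSC IV and between 12.43 and 12.63 elsewhere. Il34, the other ligand of CSF1R, differed where Csf1 did not pass the test: it was 8.07 ± 0.0050 in MSC V, 7.82 ± 0.28 in MSC II, 7.15 ± 0.31 in MSC III, 5.82 ± 0.35 in MSC I and 5.70 ± 0.23 in MSC IV (limma F, adjusted p = 0.000499), and whether both genes vary unequally was not tested. Tnf, Il1a, Il1b and Il11 lay under the table median on every array and were not tested. With the stricter filter (at least 2 arrays above the 75th percentile of the table) 5 of 8 factors differed, against 26.8% of all genes tested with it.

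Of 21 measured factors listed as restraining osteoclasts, 10 were tested and 8 differed (29.1% of all tested genes did), with a median range of 1.86 log2. Their action on osteoclasts was not tested here. Wnt4 is among the 8, and it passed the low-value filter through MSC IV alone, which fixed its direction. Sfrp1, a secreted Wnt inhibitor, had 11.38 ± 0.24 in MSC I, 10.91 ± 0.66 in MSC III and 10.75 ± 0.54 in MSC V, against 7.35 ± 0.44 in MSC II and 5.50 ± 0.32 in MSC IV (limma F, adjusted p = 8.59e-05). Il1rn, the antagonist of the interleukin-1 receptor, was 10.28 ± 0.34 in MSC I and 6.14 ± 0.77 in MSC IV. Igfbp5, which binds insulin-like growth factors, was 8.53 ± 0.39 in MSC II and 8.42 ± 1.92 in MSC III, against 5.32 to 5.88 in the others. Lgr4, a membrane receptor that can bind RANKL, was 10.84 ± 0.26 in MSC I and between 9.45 and 9.69 elsewhere. Sema3a, a semaphorin, passed the test (limma F, adjusted p = 0.0421) but lost it under 11 of 17 alternatives, each of the 10 single-array omissions other than that of MSC IV replicate 1 among them. The list had 5 of 9 genes called without MSC IV replicate 2 and 5 of 5 with the stricter filter.

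Of 39 measured receptors and regulators upstream of RANKL and OPG, 37 were tested and 19 differed (51.4%, against 29.1% of all tested genes), with a median range of 1.27 log2. Of the 19, 11 were lowest in MSC IV, against 36.6% of all called genes. The 3 with the widest ranges, Sp7, Pth1r and Mef2c, were highest in MSC IV. Sp7, the osteoblast transcription factor osterix, was 12.09 ± 1.00 in MSC IV and 5.61 ± 1.12 in MSC I. Pth1r, the receptor of parathyroid hormone, was 10.44 ± 0.26 in MSC IV and between 5.72 and 6.95 elsewhere (limma F, adjusted p = 0.00112). Mef2c, a transcription factor of bone cells, was 12.14 ± 0.30 in MSC IV and 7.44 ± 0.59 in MSC I. Jag1, a Notch ligand, was 10.99 ± 0.60 in MSC I and 7.08 ± 0.39 in MSC IV. Osmr, the receptor of oncostatin M, was 12.04 ± 0.50 in MSC I and 9.68 ± 0.98 in MSC IV. MSC II held the highest mean of 4 of the 19 and the lowest mean of 2, where 18.9% and 14.7% of all called genes did. Among these, the TGF-beta receptor Tgfbr2 was highest in MSC II (12.10 ± 0.0789, against 9.29 ± 0.38 in MSC IV). The Wnt co-receptor Lrp5 was lowest there (8.95 ± 0.0751, against 10.22 ± 0.14 in MSC I). The Wnt mediator Ctnnb1, known to raise osteoprotegerin in bone cells, had a range of 0.37 log2 and was not called (limma F, adjusted p = 0.0503). The part of these regulators in the levels of Tnfrsf11b was not tested.

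**Figure D4:**
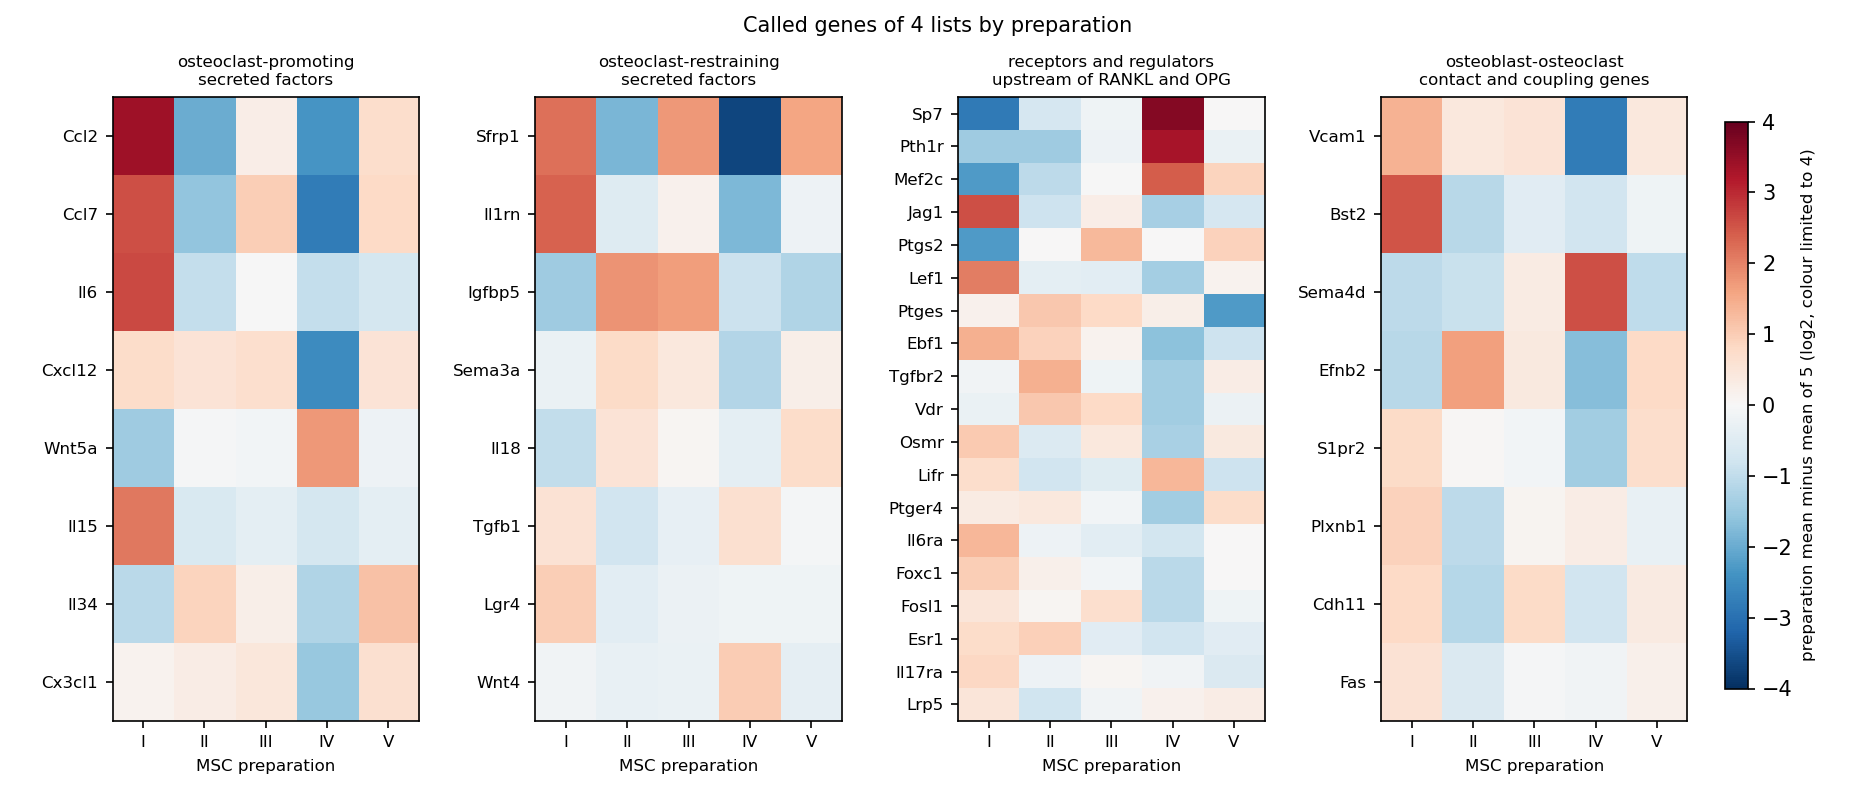
Preparation means minus the mean of the 5 preparations (log2, colour scale limited to 4) for the called genes of 4 lists, sorted by range. Red is higher and blue is lower. The darkest cells lie in the columns of MSC I and MSC IV.

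Of 4 tested proteases that release RANKL and CSF1 from the cell surface 1 was called, a share near the 29.1% of all tested genes. It was Adam19 (9.58 ± 0.57 in MSC II, 6.91 ± 0.00098 in MSC IV, limma F, adjusted p = 0.0101). Mmp14, Adam10 and Adam17 had ranges of 0.56 to 0.59 log2, under the minimum. Of 15 measured genes of contact between osteoblasts and osteoclasts, 12 were tested and 8 differed (29.1% of all tested genes did), with a median range of 1.95 log2. Fas is among the 8 and passed the low-value filter through MSC I alone. With the stricter filter 4 of 8 differed, against 26.8% of all genes. Vcam1, an adhesion molecule, was 6.75 ± 0.41 in MSC IV and 9.94 to 10.94 elsewhere, and Bst2, a membrane protein induced by interferon, was 11.54 ± 0.34 in MSC I and 7.91 to 8.83 elsewhere. Sema4d, a semaphorin, was 8.82 ± 0.36 in MSC IV and 5.20 to 6.58 elsewhere, and its range of 3.62 log2 became 1.96 with the mean of its probe sets. Efnb2, the ephrin that signals between these cells, was 10.30 ± 0.0921 in MSC II and 6.97 ± 0.0346 in MSC IV, while its receptor Ephb4 was not called (range 0.52, limma F, adjusted p = 0.305).

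The receptors on the osteoclast side were low in all preparations. Tnfrsf11a, which encodes RANK, had means of 5.58 to 5.92, and Csf1r had means of 5.22 to 5.38, both under the table median of 6.55 on every array. So did 14 of 23 measured genes of the osteoclast machinery, Acp5, Calcr, Dcstamp, Oscar and Mmp9 among them. Of its 8 tested genes 4 were called, Itgb3, Ctsk, Nfatc1 and Mitf, which other cell types also express, against 29.1% of all tested genes. The count was 2, near that share, without MSC I replicate 1 or replicate 2, and 0 of 4 with the stricter filter. Ctsk was highest in MSC V (9.72 ± 1.19) and lost its call under 10 of the 16 alternatives in which it was tested.

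Markers of other marrow cells stayed low. Of 16 macrophage markers 14 lay under the table median on every array, as did all 8 measured lymphocyte and all 8 endothelial markers. Ptprc, the pan-leukocyte antigen CD45, had means of 5.14 to 5.22 and the macrophage marker Adgre1 4.94 to 5.01. Cd68 and Cd14 were called and were highest in MSC V (8.54 ± 0.0107 and 6.95 ± 0.34) and lowest in MSC IV (6.60 ± 0.29 and 5.50 ± 0.0190). Of 15 measured stromal markers 9 lay above the table median on every array, with Itgb1 at 12.38 to 12.60 and Prrx1 at 12.03 to 12.59. Most of the list varied: all 15 were tested and 11 differed (29.1% of all tested genes did), with a median range of 2.03 log2. Of the 11, 6 were highest in MSC I and 6 lowest in MSC IV, as were 38% and 36.6% of all called genes. Eng is among the 11 and passed the low-value filter through MSC IV alone, which fixed its direction. Eng, an endoglin commonly used to define MSC, was 9.60 in MSC IV but 5.58 to 5.78, under the table median, in the others. Of 7 tested osteoblast and osteocyte markers 5 differed, against 29.1% of all tested genes, and 4 of the 5 were highest in MSC IV (22.7% of all called genes were). The 9 tested adipocyte markers were called and highest in MSC I, but Adipoq, Cd36, Plin1 and Cidec passed the low-value filter through MSC I alone, which fixed that direction. Of the other 5, 4 were called without MSC I replicate 1 and 5 without replicate 2. The part of these lineage genes in the levels of Tnfrsf11b was not tested, and in bulk samples fewer cells that express a gene and less RNA per cell cannot be told apart.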

How the data were processed

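Total RNA of 10 samples was hybridised to single-colour oligonucleotide arrays. The authors deposited log2 levels for 35399 probe sets, made with RMA and Partek per the submitters' processing notes; their versions are not given in the sources used here. In RMA the background is corrected, array distributions are equalised and probes are combined per set. Array medians ran from 6.45 to 6.63, and the small number of arrays limits precision. The platform annotation listed 1 gene symbol for 21789 probe sets, several for 1621 and none for 11989. Of the first, 21698 were matched to GRCm38.p6 for current symbols. Each gene took its probe set with the highest mean. Testing required 2 or more arrays above the table median (6.55), which 10971 genes met.

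All 10 arrays entered 1 limma 3.58.1 model (lmFit, eBayes; R 4.3.3) of preparation means, with two-sided p-values adjusted over all tested genes by Benjamini-Hochberg. Calls needed an adjusted p under 0.05 and 1 log2. Ratios and figures used Python 3.11.15. The code was tested on simulated data. The members and the 12 lists were chosen with earlier results of these data known. Up to 4 called genes with the widest range came first per list, and others were named where the biology singled them out. The 5 genes most like each member exclude predicted and clone names. The lists hold 11 further genes for which the annotation gave no symbol, not analysed here.

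Alternatives dropped the filter, tightened it (2 arrays above the 75th percentile, 9.22), averaged a gene's probe sets, centred arrays on medians, repeated quantile normalization, used trended robust eBayes, added the replicate number as a block, omitted single arrays, or fitted each pair by itself.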

Additional observations from a re-analysis of the deposited data

How the results depend on the processing

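Tnfrsf11b was called under each of the 17 alternatives of the F test, with a range of 3.15 to 3.73 log2 and an adjusted p of 0.000593 to 0.00242 when single arrays were left out. The ratio spanned 3.25 to 4.17 log2 without single arrays (exact permutation p = 0.00423 to 0.0201), and 3.64 to 3.66 otherwise. Each member gene had 1 probe set, so averaging probe sets left its own values and the ratio unchanged. Tnfsf11 was not called where it was tested (0.30 to 0.52 log2 without single arrays), and could not be tested with the stricter filter. Csf1 spanned 0.46 to 1.04 log2 without single arrays and was called without MSC I replicate 2 only; its called pairs were 0 to 1. The called pairs of Tnfrsf11b were 6 to 7. Against the mean of the other four, Tnfrsf11b was called in each preparation, and the calls of MSC I and MSC II held under every alternative. The call of MSC III (1.32 log2) was lost without either of its arrays, that of MSC V (1.11) without either of its arrays, and that of MSC IV (-1.12) without MSC IV replicate 2 (adjusted p = 0.115).

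The number of called genes was 3192, and 2593 to 3300 without single arrays. With the stricter filter fewer genes were tested, and the number called fell to 1861 of 6940 (26.8%, against 29.1% with the main filter). The called list genes fell to 47 of 80, from 72 of 112. Of the 72 called list genes 58 kept their call wherever they were tested, and 14, among them Sema3a, Ctsk, Pdgfrb, Tgfb1 and Ptgs2, lost it at least once.

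The replicate number did not pair the arrays: the deviations of same-numbered arrays correlated at -0.55 to 0.20, negatively in 9 of 10 pairs of preparations. With the replicate number as a block 2724 genes and 63 list genes were called, among them 5 of 10 restraining factors (8 without it), and 6 list genes in place of 11 were higher in MSC II. The ranges of Tnfrsf11b (3.32 log2, adjusted p = 0.00143), Csf1 (0.69, adjusted p = 0.252) and Tnfsf11 (0.34, adjusted p = 0.355) kept their side of the threshold, as did the ratio (3.66, exact permutation p = 0.0333). The calls of Tnfrsf11b against the other four in MSC III (adjusted p = 0.0501) and MSC V (adjusted p = 0.0576) were lost.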
